A study of Mus musculus with 8 samples.

Results

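Fibrinogen-binding integrins are the cell surface receptors through which the clotting protein fibrinogen is recognised, and 8 of the 21848 genes measured here encode the subunits described below: Itgam, Itgax, Itgad and Itgb2 of the leukocyte β2 family, and Itgav, Itgb3, Itga5 and Itga2b of the receptors that recognise an arginine-glycine-aspartate motif. The members were chosen by gene symbol, and all 8 were found. They were measured by droplet single-cell RNA sequencing of unenriched cells from the lesion and the spared cortex around it, taken 6 days after photothrombotic stroke (PT) of the right sensorimotor cortex, in 4 control mice given saline and 4 mice given ancrod, a snake venom protease that depletes circulating fibrinogen. All 8 mice were adult females that received an osmotic minipump 2 days before PT, filled with saline or with ancrod at 2.4 U per day, and a region of 4 mm was illuminated. The labels give the strain as Bl/J6, while the study's methods name another C57BL/6 substrain, and no transgene is given for these mice. Each mouse gave 1 library, the meninges were removed, and red blood cells and myelin were depleted during dissociation. Replicates 1 to 3 of each group were injured and sequenced as batch 1, and replicate 4 of each group as batch 2, so that batch 2 holds 1 mouse per group.

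Integrins are heterodimers of an α and a β subunit, and neither subunit binds a ligand at the surface alone. CD11b (Itgam), CD11c (Itgax) and CD11d (Itgad) each pair with CD18 (Itgb2) on leukocytes, and the CD11b/CD18 receptor binds the fibrin-exposed part of the fibrinogen γ chain and drives the inflammatory response of microglia and macrophages to a leaky blood vessel. αv (Itgav) pairs with β3 (Itgb3) and with several other β subunits, α5 (Itga5) pairs with β1 (Itgb1) to form the fibronectin receptor, and αIIb (Itga2b) pairs with β3 to form the platelet fibrinogen receptor. Perivascular fibroblasts (PVFs) and vascular cells carry α5 and αv integrins. The question behind the comparison was whether cells of the injured cortex differ when fibrinogen is depleted. Fibrinogen is a plasma protein made in the liver, so the depletion itself cannot be checked in these transcripts.

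Total unique molecular identifier (UMI) counts ranged from 97861434 to 122758649 in the saline libraries and from 126682918 to 142139441 in the ancrod libraries, so depth did not overlap between the groups. Droplets with at least 2000 UMIs and under 20% mitochondrial UMIs numbered 46216, and 44072 cells remained after 2144 predicted doublets were removed. The median depth per cell lay between 10371 and 17233 UMIs among the libraries, and 250 cell barcodes occurred in more than 1 library. Clusters were made without any integrin gene and were named from marker genes, each name meaning a cell that is like that type. Of 18 named classes, 1 of them 28 erythroid-like cells not analysed further, 13 had at least 10 cells in at least 3 mice per group and were compared. They comprised 16139 microglia-like, 5506 endothelial-like, 4252 astrocyte-like, 3396 inflammatory macrophage-like, 2294 fibroblast-like, 1173 pericyte-like, 993 monocyte-like, 857 border-associated macrophage-like, 742 T or NK cell-like, 712 neutrophil-like, 669 dendritic cell-like, 480 neuron-like and 280 smooth muscle-like cells, while 6251 cells stayed unnamed. The smallest contributions were 12 neutrophil-like cells in saline replicate 1, 18 smooth muscle-like cells in saline replicate 4, and 21 fibroblast-like and 7 neuron-like cells in saline replicate 3, the last of which were left out. Levels are depth-normalised UMI counts (CPM), in which the UMIs of a gene, summed over the cells of a class in 1 mouse, are scaled to a common total of UMIs of all genes, and they are given as mean ± SD over mice. For comparison, free RNA was read from droplets with at most 100 UMIs. Levels are compared between classes and never between genes.

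Itgam, which encodes CD11b, is a gene of 29 exons on the plus strand at chr7:127661808-127717753 (GRCm39), and it was highest in microglia-like cells. The level there was 472 ± 48.1 CPM (SD, n = 8 mice, 405 to 544), followed by neutrophil-like cells at 312 ± 34 CPM and monocyte-like cells at 281 ± 45.7 CPM. The microglia-like and neutrophil-like ranges did not overlap, while those of neutrophil-like and monocyte-like cells did. Inflammatory macrophage-like cells had 135 ± 16.8 CPM and border-associated macrophage-like cells 131 ± 18.9 CPM, 2 levels that did not differ beyond their spread, and dendritic cell-like cells had 102 ± 17.8 CPM. Each of the 6 non-leukocyte classes lay between 2.52 and 6.03 CPM, against 151 ± 22.3 CPM in free RNA. Microglia-like cells were 36.6% of all cells and held 82.3% ± 3.99 of all 167456 Itgam UMIs. At least 1 Itgam UMI was seen in 97.1% ± 1.21 of microglia-like cells (median depth 15750 UMIs) and in 3.80% ± 0.247 of endothelial-like cells (10533 UMIs), which are not known to make CD11b. When every cell was thinned to 2000 UMIs, these shares were 57.7% and 0.605%.

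Itgb2, which encodes the shared CD18 chain (16 exons, plus strand, chr10:77366086-77401542), gave UMIs in every leukocyte class. Monocyte-like cells at 349 ± 28.1 CPM (307 to 391) and neutrophil-like cells at 341 ± 55.8 CPM (220.1 to 389) led and overlapped, and the order of these classes turned when clusters were made at a coarser resolution or when at least 4000 UMIs per droplet were required. Dendritic cell-like cells followed at 217 ± 26.2 CPM, microglia-like cells at 194 ± 10.9 CPM, inflammatory macrophage-like cells at 192 ± 8.07 CPM and T or NK cell-like cells at 171 ± 27.2 CPM, each overlapping the next. Border-associated macrophage-like cells had 104 ± 11.5 CPM and lay below all of these without overlap. The 6 non-leukocyte classes had 1.41 to 3.27 CPM, against 101 ± 12.2 CPM in free RNA. Microglia-like cells thus had the highest level of the CD11b chain but stood in the fourth place for its CD18 partner. Without thinning, both Itgam and Itgb2 UMIs were found in 85.5% ± 4.72 of microglia-like, 87.6% of monocyte-like and 84.7% of inflammatory macrophage-like cells.

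Itgax, which encodes CD11c (30 exons, plus strand, chr7:127728668-127749829), marked dendritic cell-like cells at 199.6 ± 20.0 CPM (169 to 224). No mouse of the next class reached that range, since neutrophil-like cells had 54.6 ± 36.3 CPM (15.3 to 110.1), monocyte-like cells 45.5 ± 6.74 CPM and inflammatory macrophage-like cells 36.6 ± 8.90 CPM. Microglia-like cells had 12.6 ± 3.14 CPM and border-associated macrophage-like cells 1.43 ± 0.336 CPM. Because microglia-like cells were numerous, they still held 33.3% of Itgax UMIs, against 32.1% in inflammatory macrophage-like cells and 22.4% in dendritic cell-like cells, which were 1.5% of cells. Within the T or NK cell-like class, which had 26.8 ± 4.25 CPM, the cluster led by Gzma, Klra4 and Klra8, genes of natural killer cells, had 72.9 ± 26.3 CPM (36.9 to 117). Among plasmacytoid dendritic cell-like cells, pooled because only 82 were found, Itgax stood at 78.4 CPM (exact Poisson 95% interval 62.4 to 97.4, counting error only).

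Itgam and Itgax were highest in different classes, but each had a profile like that of Itgb2 across the 13 classes. On mean log2(CPM + 1), a description over 13 classes of the same libraries, Itgam correlated with Itgb2 at r = 0.95. Itgax correlated with Itgb2 at r = 0.90 and with Itgam at r = 0.80. For that reason the 250 bases before the annotated start of each of these genes are printed here (GRCm39, annotation GENCODE, 5′ to 3′), with capitals marking GAGGAA, the core of the box bound by the myeloid factor PU.1, or its reverse complement TTCCTC.
Itgam promoter, chr7:127661558-127661807, plus strand: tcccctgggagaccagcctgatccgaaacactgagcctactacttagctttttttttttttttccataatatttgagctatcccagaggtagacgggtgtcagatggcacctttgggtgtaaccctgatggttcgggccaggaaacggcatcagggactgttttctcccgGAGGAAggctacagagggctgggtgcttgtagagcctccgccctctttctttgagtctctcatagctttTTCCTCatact
Itgax promoter, chr7:127728418-127728667, plus strand: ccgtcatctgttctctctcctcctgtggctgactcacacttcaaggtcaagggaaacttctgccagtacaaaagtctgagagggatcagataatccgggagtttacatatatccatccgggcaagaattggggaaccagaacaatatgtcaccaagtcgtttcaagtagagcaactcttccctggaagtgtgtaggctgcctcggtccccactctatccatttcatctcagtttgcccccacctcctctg
Itgb2 promoter, chr10:77365836-77366085, plus strand: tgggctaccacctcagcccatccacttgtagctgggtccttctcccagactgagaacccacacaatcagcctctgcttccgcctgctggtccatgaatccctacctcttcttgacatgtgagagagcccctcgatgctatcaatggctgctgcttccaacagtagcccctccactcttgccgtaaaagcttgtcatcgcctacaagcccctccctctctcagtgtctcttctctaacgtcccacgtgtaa
Only the Itgam window of these held the letters, once on each strand, with the match on the minus strand ending 6 bases before the start. Among all 8 members, 3 windows held GAGGAA on either strand (Itgam, Itga5 and Itga2b), while 22.9% of 21736 protein-coding promoters of this length did. GGGCGG, the GC box, was found on either strand in 3 of the 8 (36.3% of all promoters) and TATAAA on the plus strand in 0 of the 8 (8.04% of all promoters). A match describes letters and not a bound site.

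Itgad, which encodes CD11d (30 exons, plus strand, chr7:127753548-127822988), gave only 449 UMIs in all cells. In 82 plasmacytoid dendritic cell-like cells it stood at a pooled 42.1 CPM (exact Poisson 95% interval 30.6 to 56.5), with 44 UMIs in 28 cells and at least 1 UMI in 8 of 8 mice. These cells were 0.184% of all cells and held 9.00% of Itgad UMIs. Among the 13 compared classes, T or NK cell-like cells had the highest level at 3.22 ± 2.36 CPM (0 to 6.20), neutrophil-like cells had 1.91 ± 1.70 CPM and microglia-like cells 1.05 ± 0.291 CPM (0.733 to 1.62), and these ranges overlapped. The gene Cox6a2, a muscle-type respiratory chain subunit, lies inside Itgad on the opposite strand, overlaps 70 of its exon bases and was among the markers used to name plasmacytoid dendritic cells. Of the 28 plasmacytoid dendritic cell-like cells with an Itgad UMI, 27 also held Cox6a2, as did 75 of all 82 (1088 CPM). In microglia-like cells, Cox6a2 had 31.9 CPM, and 83 of 265 cells with an Itgad UMI held it, against 4477 of 16139 cells in all. The part of this overlap in the Itgad level was not tested. Itgam has an overlap of its own, with the protein-coding model Gm49368 on the same strand covering 3697 of its 3744 exon bases; Gm49368 was given 8.48 CPM in microglia-like cells and 45.3 CPM in neutrophil-like cells, and how reads were divided between the models was not tested.

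**Figure D1:**
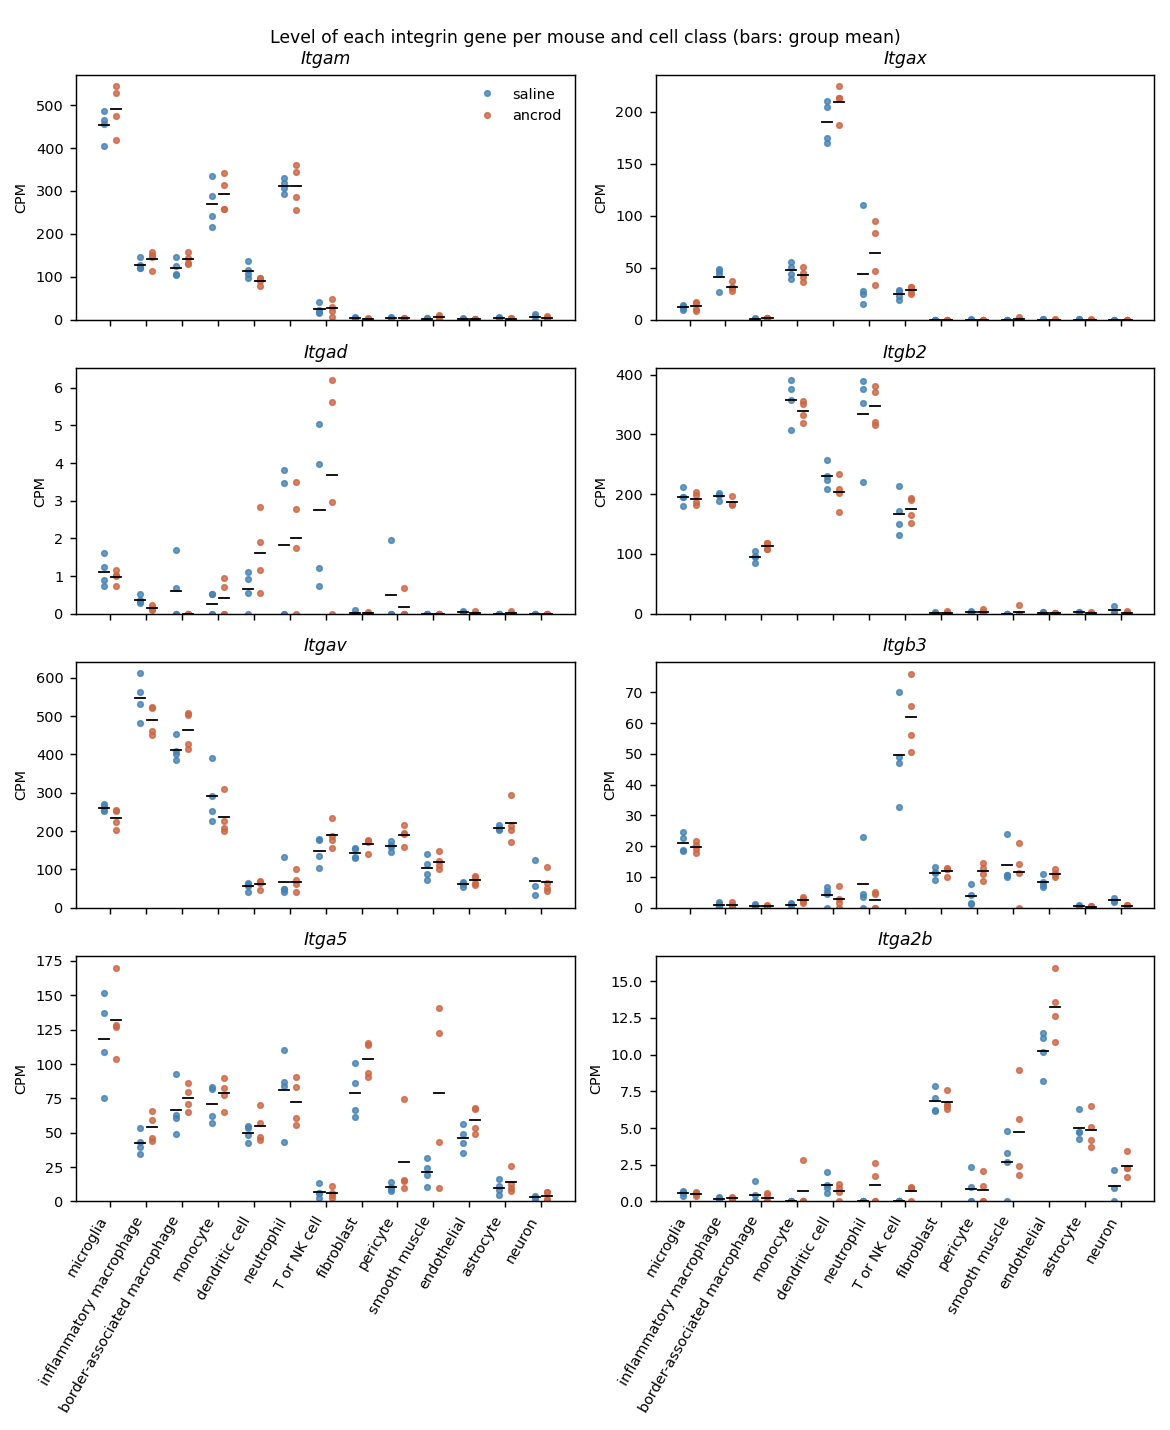
Level of each of the 8 integrin genes (CPM, linear axes from 0, 1 panel per gene) in the 13 compared classes, with each point 1 mouse, saline and ancrod mice in separate colours and a bar at each group's mean. Itgam is highest in microglia-like cells (472 CPM), Itgax in dendritic cell-like cells (199.6 CPM), Itgav in inflammatory macrophage-like cells (518 CPM) and Itga2b in endothelial-like cells (11.7 CPM).

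The receptors of the second group were not restricted to leukocytes. Itgav (30 exons, plus strand, chr2:83554403-83637260) gave UMIs in all 13 classes, from 58.5 ± 10.1 CPM in dendritic cell-like cells to 518 ± 53.4 CPM (451 to 612) in inflammatory macrophage-like cells. Border-associated macrophage-like cells followed at 438 ± 46.6 CPM, monocyte-like cells at 263 ± 64.7 CPM, microglia-like cells at 247 ± 22.0 CPM, astrocyte-like cells at 214 ± 34.9 CPM, pericyte-like cells at 175 ± 23.4 CPM and fibroblast-like cells at 154 ± 18.5 CPM. Free RNA had 149 ± 18.9 CPM of Itgav, above the means of smooth muscle-like (112 CPM), neuron-like (68.0 CPM), neutrophil-like (67.9 CPM), endothelial-like (66.6 CPM) and dendritic cell-like cells. No class was separated from its neighbour in this order without overlap of the mice. The 84 oligodendrocyte precursor-like cells, pooled, had 553 CPM (exact Poisson 95% interval 520 to 587), with a UMI in 74 of them. Within the inflammatory macrophage-like class, the cluster led by Gpnmb and Lyz2 had 581 ± 56.7 CPM, and the dividing cluster led by Prtn3, Mki67 and Top2a had 234 ± 68.1 CPM. Across classes, Tmem37 (r = 0.91), Vps29 (r = 0.86) and Gpnmb (r = 0.86) had the profiles most like Itgav among 8382 genes ranked over 13 classes.

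Itgb3 (15 exons, plus strand, chr11:104498826-104561302) did not follow Itgav across the classes (r = -0.26). T or NK cell-like cells had the highest level at 55.9 ± 14.1 CPM (32.8 to 76.0), without overlap with the next class, microglia-like cells, at 20.4 ± 2.42 CPM. Smooth muscle-like cells had 12.7 ± 7.37 CPM, fibroblast-like cells 11.6 ± 1.45 CPM, endothelial-like cells 9.64 ± 2.06 CPM and pericyte-like cells 7.70 ± 5.07 CPM, all overlapping. In the macrophage-like classes, where Itgav was highest, Itgb3 was 0.897 CPM (inflammatory) and 0.44 CPM (border-associated), below the 9.06 ± 3.22 CPM of free RNA. Pooled plasmacytoid dendritic cell-like cells had 68.9 CPM (exact Poisson 95% interval 53.9 to 86.7), with a UMI in 40 of 82 cells. Fibroblast-like cells, the deepest class with a median of 41701.5 UMIs, had an Itgb3 UMI in 30.5% of cells, but thinned to 2000 UMIs the share was 2.16%, against 10.9% in T or NK cell-like cells. Astrocyte-like cells, at a median of 9300 UMIs, held one in 0.389%. Itgav and Itgb3 were found together in 29.9% of fibroblast-like and 20.9% of microglia-like cells. These shares were not thinned, and microglia-like cells were shallower, with a median of 15750 UMIs.

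Itga5 (30 exons, minus strand, chr15:103252713-103275270) was highest in microglia-like cells at 125 ± 29.5 CPM (75.5 to 170.0), with fibroblast-like cells next at 91.1 ± 19.9 CPM (61.2 to 115). The ranges overlapped, although the microglial level was the higher one in 8 of 8 mice. Neutrophil-like cells had 76.8 ± 21.8 CPM, monocyte-like cells 74.8 ± 11.8 CPM, border-associated macrophage-like cells 70.9 ± 14.6 CPM and endothelial-like cells 52.7 ± 11.3 CPM. Astrocyte-like cells at 12.1 ± 6.57 CPM and T or NK cell-like cells at 6.61 ± 3.91 CPM lay below the 51.5 ± 15.8 CPM of free RNA. So did the means of smooth muscle-like (50.3 CPM), inflammatory macrophage-like (48.4 CPM), pericyte-like (19.5 CPM) and neuron-like cells (3.70 CPM). Itga5 UMIs were found in 78.0% of fibroblast-like and 51.7% of microglia-like cells, and in 6.23% of T or NK cell-like cells (median depth 8608.5 UMIs). After thinning the order turned, with 12.4% of fibroblast-like and 17% of microglia-like cells. Without thinning, Itga5 and its partner Itgb1 were found together in 77.8% of fibroblast-like cells. Ubtd1 (r = 0.95), Pla2g4a (r = 0.93) and Zfp36 (r = 0.90) had the profiles most like it over the 13 classes.

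Itga2b (30 exons, minus strand, chr11:102341397-102360955) was highest among the 13 compared classes in endothelial-like cells at 11.7 ± 2.33 CPM (8.20 to 15.9), without overlap with fibroblast-like cells at 6.78 ± 0.657 CPM (6.13 to 7.89). Astrocyte-like cells had 4.92 ± 0.989 CPM, and each macrophage-like or microglia-like class was under 1 CPM, while free RNA had 4.05 ± 0.657 CPM. Of the classes too small to compare, the 72 B cell-like cells, pooled, had 27.1 CPM (exact Poisson 95% interval 16.1 to 42.9), from 18 UMIs in 8 cells of 5 mice, and the 62 ependymal-like cells 13.7 CPM (8.79 to 20.4), from 24 UMIs in 19 cells of 2 mice. The B cell-like level leaned on saline replicate 3, the 1 saline mouse with at least 10 such cells, at 90.1 CPM. The 2 ancrod mice with at least 10 had a mean of 5.47 CPM. An Itga2b UMI was found in 23.9% ± 5.77 of fibroblast-like cells, the deepest class, in 16.1% ± 5.29 of endothelial-like cells and in 0.601% of inflammatory macrophage-like cells, which were deeper (27400 UMIs) than endothelial-like cells. Thinned to 2000 UMIs, the fibroblast share was 1.17% and the endothelial share 1.77%. No cluster was named platelet-like or megakaryocyte-like. Of the 10 platelet markers, none was at 0 over all 44072 cells. Gp6 had 21 UMIs, Gp1ba 33, Gp5 55, Gp1bb 150, Ppbp 283 in 96 cells, Treml1 578, Clec1b 1447 in 1270 cells, Gp9 1721 in 1542 cells, Tubb1 2051 in 1534 cells and Nrgn, which neurons also express, 18646. The part of platelet RNA on other cells in the Itga2b level was not tested. The genes most like Itga2b over the 13 classes were Zfp521 (r = 0.96), Pdgfd (r = 0.96) and Fat4 (r = 0.94).

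**Figure D2:**
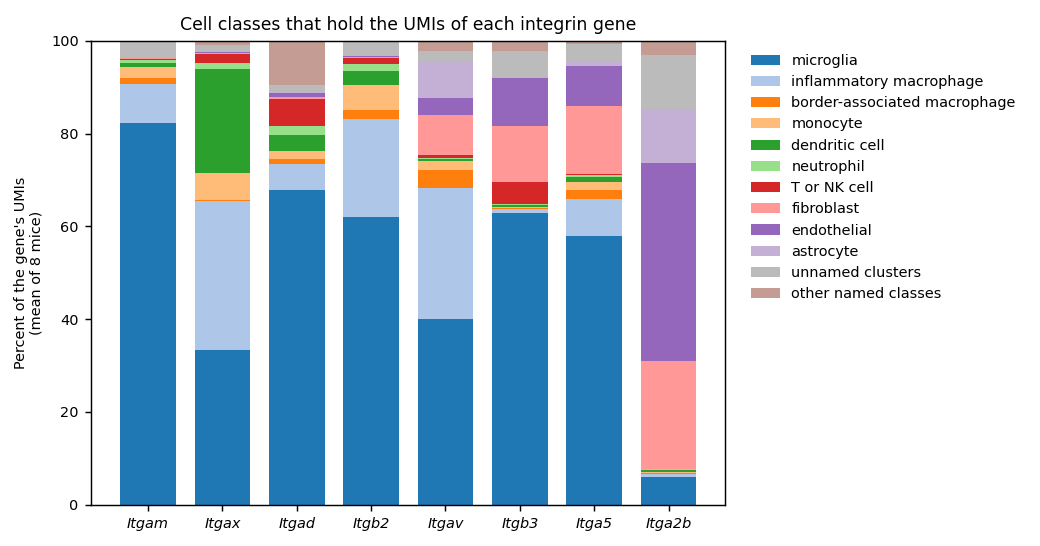
Share of each integrin gene's UMIs (percent, mean over 8 mice) that came from each cell class, drawn as stacked bars that sum to 100. Microglia-like cells give 82.3% of Itgam UMIs and 33.3% of Itgax UMIs, whereas endothelial-like cells give 42.8% of Itga2b UMIs.

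The classes were not uniform within themselves, and clusters made without integrin genes differed widely in Itga5. Among 9 microglia-like clusters, the cluster led by Bcl2a1a, Tnf and Il1a, of which Tnf and Il1a encode inflammatory cytokines, had 242 ± 31.8 CPM of Itga5 (187 to 282). The clusters led by P3h2 and Csmd3 at 24.4 ± 3.99 CPM (18.9 to 29.6) and by Sall3 and Fgd2 at 25.6 ± 6.03 CPM (16.4 to 34.1), the second of which also listed the homeostatic genes Siglech and P2ry12 among its leading genes, lay far below it. Every mouse's level in the Tnf-led cluster exceeded every mouse's level in these other 2 and in the cluster led by Hcar2 and Apoc1 (56.5 ± 13.8 CPM). The remaining 5 clusters lay between 113 and 157 CPM. Itgam followed another order and had a smaller ratio of highest to lowest level, from 285 ± 53.8 CPM in the dividing cluster led by Mki67 and Top2a to 595 ± 61.6 CPM in the Hcar2-led cluster, and the Sall3-led cluster had 571 ± 72.5 CPM. Itgav ranged from 180.4 ± 21.7 CPM in the Tnf-led cluster to 351 ± 25 CPM in the cluster led by Cd5l and Igf1, and Itgb2 ranged from 151 to 228 CPM. Itgb3 was 35.4 ± 7.61 CPM in the P3h2-led cluster and 13.7 ± 4.53 CPM in the interferon-response cluster led by Ifit2 and Mx1. Clusters left unnamed are not in these values. Of them, a cluster of 784 cells (median 3775 UMIs), with Csmd3 and P3h2 among its leading genes, had 199 ± 124 CPM of Itga5. The unnamed clusters led by Gng10 and Cryba4 (2008 cells, median 2804 UMIs) and by Cd5l and Apoc4 (791 cells, median 2927 UMIs) had 3.93 and 3.54 CPM. Cells of a cluster share their libraries, so these are descriptions without a test. Shares of clusters were counted over the pooled cells of each group, so they carry no spread between mice. The Tnf-led cluster held 14.1% of saline and 20.1% of ancrod microglia-like cells, and the P3h2-led cluster 16.8% and 8.37%.

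**Figure D3:**
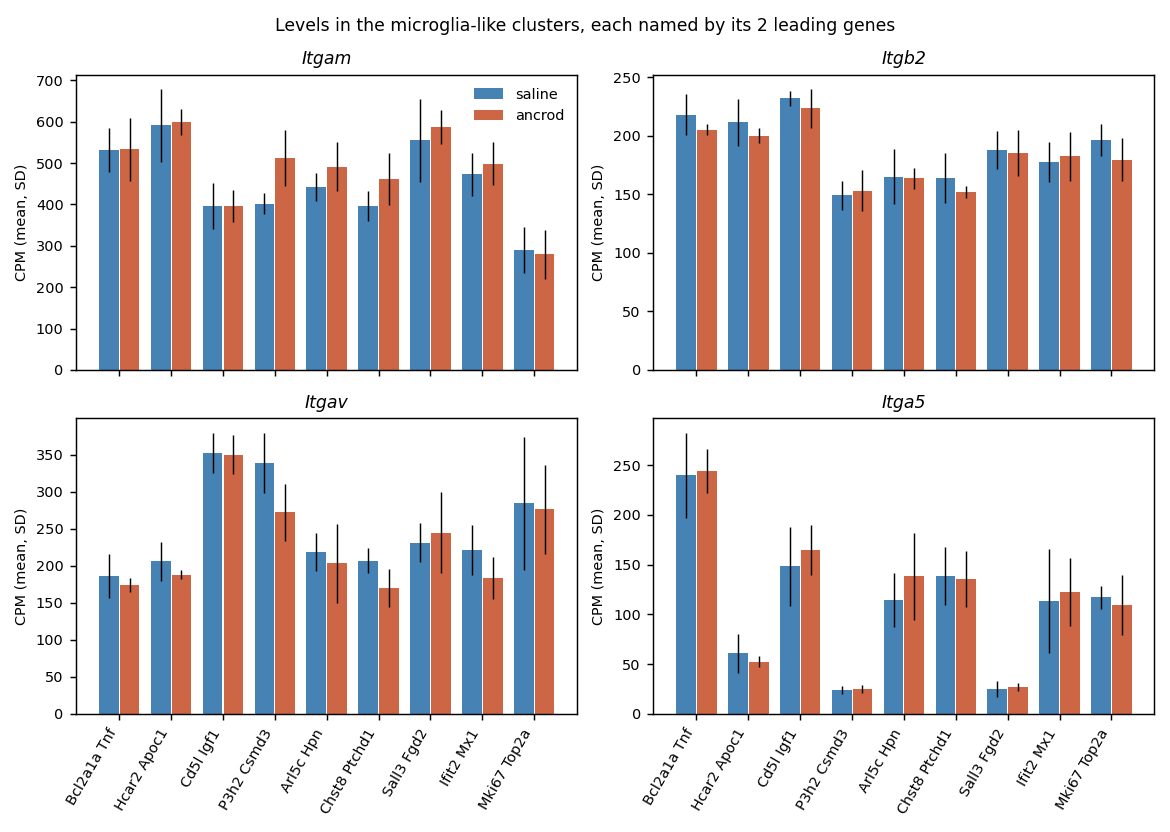
Levels of Itgam, Itgb2, Itgav and Itga5 (CPM) in the 9 microglia-like clusters, each named by its 2 leading genes, with bars at the group mean over saline or ancrod mice and error bars of 1 SD. Over all mice and relative to its lowest level, Itga5 has the widest range of the 4 genes drawn, from 24.4 CPM in the P3h2-led cluster to 242 CPM in the Tnf-led cluster.

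Endothelial-like cells were likewise divided. The cluster led by Selp, Ackr1 and Sele, of which Selp and Sele encode the adhesion molecules P-selectin and E-selectin, had 102 ± 12.6 CPM of Itga5 (87.5 to 128), against 43.4 ± 4.63, 23.6 ± 6.01 and 18.3 ± 5.65 CPM in the other endothelial-like clusters, with no overlap. Itgb3 in the Selp-led cluster was 22.5 ± 8.91 CPM (14.2 to 43.0), above the 7.44, 3.42 and 1.78 CPM of the others, and Itga2b was 18.2 ± 2.62 CPM (14.8 to 22.3), above 11.3, 7.01 and 7.79 CPM. All 3 genes were thus higher in this cluster than in any other endothelial-like cluster, without overlap of the mice. A further cluster of 1623 cells, led by Gkn3, Sema3g and Bmx, was left unnamed and so is not in the endothelial-like values. It had 31.1 CPM of Itga5, 7.45 CPM of Itgb3 and 7.60 CPM of Itga2b. The Selp-led cluster held 10.1% of the pooled saline and 18.1% of the pooled ancrod endothelial-like cells. Mice gave 327 to 1010 endothelial-like cells each, so they weigh unequally in these shares. The Itga5 level of the Selp-led cluster was 102 CPM in saline and 103 CPM in ancrod mice. Among fibroblast-like clusters, means rest on the mice with at least 10 cells. Itga5 was 114 ± 28.4 CPM (n = 7) in the cluster led by Cemip and Lum, 95.9 ± 20.7 CPM (n = 7) in the dividing cluster led by H1f5 and Mmp3, 93.4 ± 24.9 CPM (n = 7) in the Col1a1-led cluster and 56.0 ± 10.6 CPM (n = 5, of which 1 is a saline mouse) in the cluster led by Penk and Ccn3, all overlapping. The shallow cluster led by Ptgds and Mmp3 had the lowest level at 20.0 ± 21.8 CPM (n = 5).

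The comparison of ancrod with saline mice was made within each class with edgeR's quasi-likelihood test on the summed UMIs, with Benjamini-Hochberg adjustment over all genes tested in the class. Of the 104 pairs of a member and a class, 60 had enough UMIs to be tested and 44 fell below the filter. No pair passed an adjusted p of 0.05 (0 of 60, lowest adjusted p = 0.258), while 0.0574% of all 125343 gene and class pairs did, and DESeq2 also called 0 of the members. At an unadjusted p below 0.05 there were 10 of 60 pairs, 7 higher and 3 lower in ancrod mice, against 6.35% of all pairs, and the groups did not overlap in 2 of 60, against 3.67% of all pairs. The log2 fold changes of the 60 pairs had a median of 0.11, with 38 above and 22 below 0. The median log2 fold change over all genes lay between -0.0080 and 0.021 in the 13 classes.

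Itgam in microglia-like cells stood at 487, 456, 465 and 405 CPM in saline replicates 1 to 4 and at 544, 528, 476 and 419 CPM in ancrod replicates 1 to 4. The groups overlapped, and replicate 4, the batch 2 mouse, was lowest in both. The log2 fold change (ancrod over saline) was 0.16 (SE 0.10, 95% interval -0.06 to 0.38, adjusted p = 0.949, edgeR's quasi-likelihood test). In neutrophil-like cells Itgam was 330.2, 319.8, 307 and 294 CPM in saline and 359.8, 345, 255 and 286 CPM in ancrod mice, and the log2 fold change was -0.03 (95% interval -0.47 to 0.41). In monocyte-like cells the log2 fold change was 0.07 (95% interval -0.24 to 0.38). All 3 intervals include 0, and that of neutrophil-like cells is the widest.

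Dendritic cell-like cells were the class in which Itgam did not overlap between groups after normalisation. Saline mice had 115, 97.1, 137 and 107 CPM and ancrod mice 98.3, 89.3, 97.6 and 78.1 CPM. The 3 highest values were all from saline mice. On the CPM given here, before the further normalisation of the fit, saline replicate 2 lay just below 2 of the ancrod mice. The log2 fold change was -0.34 (SE 0.13, unadjusted p = 0.0214, adjusted p = 0.637, edgeR's quasi-likelihood test), which did not pass. Here 10 microglial marker genes summed to 508 to 814 CPM in saline and 470 to 613 CPM in ancrod mice. Of these 10, 0 were higher in the ancrod mean and none was at 0 in every mouse. By contrast, 7 of 10 inflammatory macrophage markers and 6 of 10 neutrophil markers were higher in the ancrod mean. Mmp9 and Ly6g of the neutrophil list were at 0 in every mouse. The part of any of these lists in the Itgam values was not tested.

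The log2 fold change farthest below 0 among the 60 pairs was Itgam in astrocyte-like cells, at 3.53, 5.07, 4.18 and 6.50 CPM in saline and 2.12, 3.31, 3.94 and 2.02 CPM in ancrod mice. The groups overlapped at 10 to 54 UMIs per mouse, far below the level of free RNA. This log2 fold change was -0.72 (SE 0.29, unadjusted p = 0.0327, adjusted p = 1.00, edgeR's quasi-likelihood test), and with predicted doublets kept it was 0.066. Microglial markers in these cells summed to 590 to 776 CPM in saline and 557 to 791 CPM in ancrod mice, 2 of the 10 were higher in the ancrod mean and none was at 0 in every mouse, and their part was not tested.

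Itgax in dendritic cell-like cells was 210.1, 169, 204 and 175 CPM in saline and 213, 224, 213 and 188 CPM in ancrod mice. The groups overlapped, with a log2 fold change of 0.13 (SE 0.11, 95% interval -0.10 to 0.37). In neutrophil-like cells Itgax was 110.1, 27.8, 25 and 15.3 CPM in saline and 33.1, 83.5, 47.1 and 95.2 CPM in ancrod mice. Here the highest mouse of all was saline replicate 1, whose value rests on 5 UMIs in 12 cells, while the other 3 saline mice lay below every ancrod mouse. The log2 fold change of 1.01 had a wide interval (-0.01 to 2.03, adjusted p = 0.984, edgeR's quasi-likelihood test). In these neutrophil-like cells 9 of 10 microglial markers were higher in the ancrod mean and none was at 0 in every mouse. Their summed level was 386 to 814 CPM in saline and 452 to 989 CPM in ancrod mice. Of the dendritic cell markers 5 of 10, and of the monocyte markers 3 of 10, were higher in the ancrod mean. Cd209a, Ccr7 and H2-DMb2 of the dendritic cell list were at 0 in every mouse. Over all mice Itgax was 12.6 CPM in microglia-like, 199.6 CPM in dendritic cell-like and 45.5 CPM in monocyte-like cells. The part of any list was not tested. In monocyte-like cells the log2 fold change of Itgax was -0.18 (95% interval -0.54 to 0.19). In inflammatory macrophage-like cells Itgax was 48.5, 44.5, 46.9 and 26.7 CPM in saline and 30.7, 37.0, 27.3 and 31.4 CPM in ancrod mice. The 3 batch 1 saline mice lay above every ancrod mouse, whereas the batch 2 saline mouse was the lowest of all. The log2 fold change was -0.43 (SE 0.17, unadjusted p = 0.0267, edgeR's quasi-likelihood test), and it was -0.60 in batch 1 and 0.23 between the batch 2 mice. Microglial markers in these cells summed to 2483 to 2794 CPM in saline and 2435 to 3199 CPM in ancrod mice, 8 of the 10 were higher in the ancrod mean and none was at 0 in every mouse. Of the dendritic cell markers, 5 of 10 were higher in the ancrod mean. Microglia-like cells hold Itgax at 12.6 CPM and dendritic cell-like cells at 199.6 CPM, and the part of either list was not tested.

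Itgb2 in border-associated macrophage-like cells was 85.0, 96.4, 105 and 94.8 CPM in saline and 118, 108, 118 and 109 CPM in ancrod mice. Every ancrod mouse lay above every saline mouse, yet the log2 fold change of 0.23 (SE 0.11, adjusted p = 0.705, edgeR's quasi-likelihood test) did not pass. In monocyte-like cells Itgb2 was 307, 391, 376 and 358 CPM in saline and 351, 319, 356 and 332 CPM in ancrod mice, overlapping, with a log2 fold change of -0.13 (95% interval -0.34 to 0.09). In dendritic cell-like cells the log2 fold change was -0.19 (95% interval -0.43 to 0.06), and in neutrophil-like cells it was -0.07 (-0.56 to 0.42). Itgad could be tested in microglia-like cells alone, where the log2 fold change was -0.14 (95% interval -0.74 to 0.46).

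Itgav in inflammatory macrophage-like cells, its highest class, was 562, 612, 531 and 481 CPM in saline and 451, 522, 462 and 523 CPM in ancrod mice. The groups overlapped, and the log2 fold change of -0.19 (SE 0.09, 95% interval -0.40 to 0.02) was -0.29 in batch 1 and 0.12 between the batch 2 mice. It was 0.16 (95% interval -0.08 to 0.40) in border-associated macrophage-like cells and -0.31 (-0.72 to 0.09) in monocyte-like cells. In pericyte-like cells Itgav was 146, 164, 174 and 159 CPM in saline and 196, 158, 191 and 215 CPM in ancrod mice. Of the ancrod mice, 3 were above every saline mouse and replicate 2 was below 3 of the saline mice, with a log2 fold change of 0.30 (SE 0.12, unadjusted p = 0.0265, adjusted p = 0.318, edgeR's quasi-likelihood test).

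Of the 10 pairs at an unadjusted p below 0.05, 4 were of Itga5, in classes that share the same 8 libraries. Itga5 in free RNA was 86.2 CPM in ancrod replicate 4 and 37.1 to 56.5 CPM in the other 7 mice. In fibroblast-like cells it was 86.2, 101, 66.3 and 61.2 CPM in saline and 114, 115, 90.7 and 93.7 CPM in ancrod mice. The 2 highest mice were ancrod and the 3 lowest saline, but saline replicate 2 lay within the ancrod range, and the log2 fold change was 0.39 (SE 0.16, 95% interval 0.03 to 0.76, unadjusted p = 0.0384, adjusted p = 0.386, edgeR's quasi-likelihood test). In these cells 5 of 8 smooth muscle markers were higher in the ancrod mean and none was at 0 in every mouse. Their summed level was 166 to 441 CPM in saline and 320.1 to 1501 CPM in ancrod mice. Of the microglial markers 2 of 10, and of the pericyte markers 3 of 10, were higher in the ancrod mean. Over all mice Itga5 was 50.3 CPM in smooth muscle-like, 125 CPM in microglia-like and 19.5 CPM in pericyte-like cells. The Cemip-led cluster held 49.1% of the pooled saline and 35.7% of the pooled ancrod fibroblast-like cells. The part of this share or of any list was not tested. In endothelial-like cells Itga5 was 35.0, 56.6, 49.4 and 42.5 CPM in saline and 67.1, 53.8, 49.0 and 68.0 CPM in ancrod mice, with a log2 fold change of 0.37 (unadjusted p = 0.0477, edgeR's quasi-likelihood test). Ancrod replicates 1 and 4 were above all others, and the other two lay within the saline range. The pooled share of the Selp-led cluster, given above, was larger in ancrod mice. In the clusters led by Hmcn1, Il1r1 and Pglyrp1, Itga5 means were 21.9, 41.8 and 15.5 CPM in saline mice. In ancrod mice they were 25.4, 45.1 and 21.2 CPM. Of the pericyte markers, 10 of 10 were higher in the ancrod mean and none was at 0 in every mouse. They summed to 254 to 405 CPM in saline and 395 to 499 CPM in ancrod mice. Of the fibroblast markers, 7 of 10 were higher and Dpt was at 0. Their sums were 47.3 to 60.7 CPM and 30.8 to 133 CPM. Itga5 was 19.5 CPM in pericyte-like and 91.1 CPM in fibroblast-like cells, against 52.7 CPM in endothelial-like cells. The part of the share or of either list was not tested. In microglia-like cells Itga5 was 109, 152, 137 and 75.5 CPM in saline and 127, 129, 104 and 170.0 CPM in ancrod mice. The lowest and the highest of these mice were the 2 of batch 2, and the log2 fold change of 0.19 (SE 0.22, 95% interval -0.29 to 0.67) was -0.13 in batch 1 and 1.17 between the batch 2 mice. In neutrophil-like cells the log2 fold change of Itga5 was -0.00024 (95% interval -0.67 to 0.67).

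Both mural classes rested on few UMIs of Itga5. Their means over all mice, 19.5 CPM (pericyte-like) and 50.3 CPM (smooth muscle-like), lay below the 51.5 CPM of free RNA. In pericyte-like cells the levels were 8.72, 7.98, 14.1 and 10.8 CPM in saline and 74.3, 15.7, 9.68 and 14.6 CPM in ancrod mice. Ancrod replicate 1 stood far above all other mice, and the other 3 overlapped with saline. The log2 fold change was 1.52 (SE 0.56, adjusted p = 0.258, edgeR's quasi-likelihood test) with that mouse and 0.44 (adjusted p = 0.769) without it. In smooth muscle-like cells Itga5 was 10.5, 24.7, 31.9 and 19.3 CPM in saline and 140.5, 9.66, 43.0 and 123 CPM in ancrod mice. Ancrod replicates 1 and 4 were high, ancrod replicate 2 was the lowest of all, and the log2 fold change of 1.76 (SE 0.61) had an adjusted p of 0.963 (edgeR's quasi-likelihood test). In these cells 7 of 10 fibroblast markers were higher in the ancrod mean, with summed levels of 304 to 665 CPM in saline and 406 to 877 CPM in ancrod mice and Pdgfra and Dpt at 0 in every mouse. Of the endothelial markers, 7 of 10 were higher, none was at 0 in every mouse, and the sums were 250.4 to 656 CPM and 244 to 773 CPM. Of the pericyte markers, 3 of 10 were higher in the ancrod mean. The part of any of these lists was not tested. Fibroblast markers in pericyte-like cells summed to 1124 to 1347 CPM in saline and 1530 to 2207 CPM in ancrod mice. Of these, 6 of the 10 were higher in the ancrod mean, and Dpt was at 0. Smooth muscle markers in pericyte-like cells summed to 758 to 1432 CPM in saline and 898 to 3642 CPM in ancrod mice, 3 of the 8 were higher in the ancrod mean and none was at 0 in every mouse. Of the endothelial markers, 3 of 10 were higher in the ancrod mean. The part of any of these lists in the Itga5 and Itgav values was not tested. A further cluster of 509 cells (median 27720 UMIs), led by the pericyte genes Rgs5, Abcc9 and Vtn but left unnamed, had 39.2 ± 17.6 CPM of Itga5 in saline and 42.2 ± 7.47 CPM in ancrod mice, and 83.0 ± 20.6 and 72.2 ± 11.6 CPM of Itgav.

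**Figure D4:**
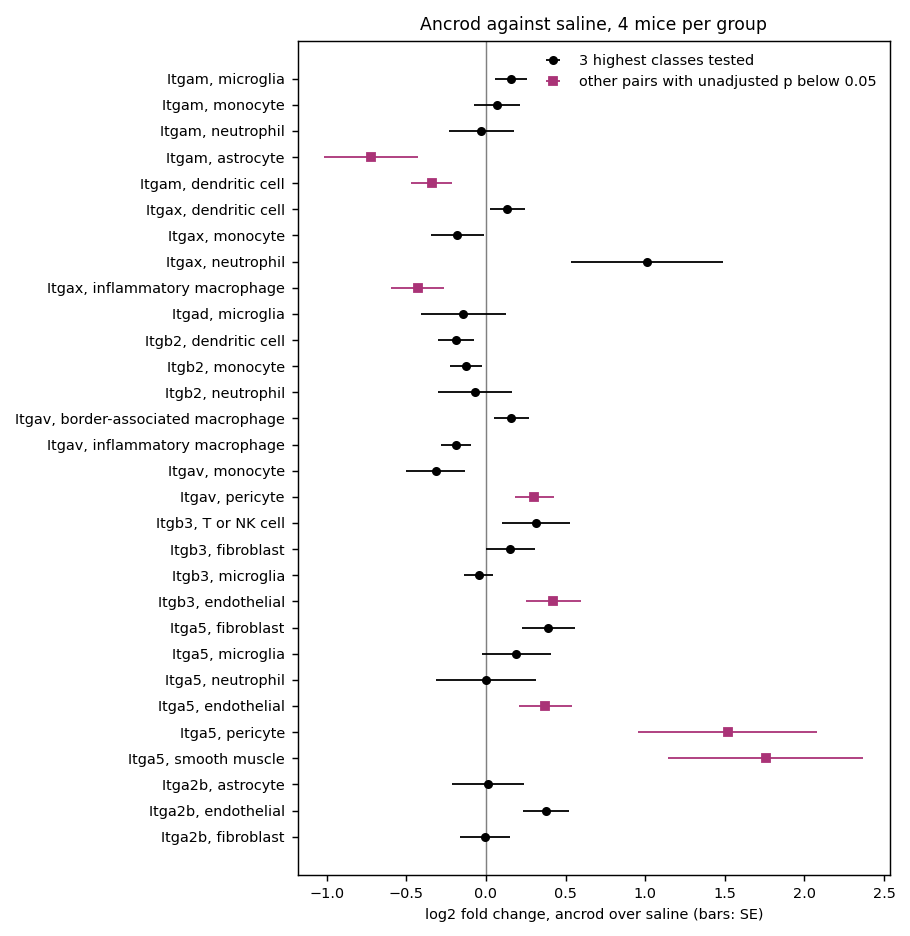
Log2 fold change (ancrod over saline) with bars of 1 SE for the 22 pairs of an integrin gene and a class chosen by level, drawn in black, and the other 8 pairs with an unadjusted p below 0.05, drawn in purple, from edgeR's quasi-likelihood fit. No pair passed an adjusted p of 0.05, and the points farthest from 0 are Itga5 in pericyte-like and smooth muscle-like cells (1.52 and 1.76).

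Itgb3 in T or NK cell-like cells was 32.8, 70.2, 47.0 and 49.2 CPM in saline and 65.6, 76.0, 56.2 and 50.5 CPM in ancrod mice, overlapping through saline replicate 2, with a log2 fold change of 0.31 (95% interval -0.14 to 0.77). In fibroblast-like cells it was 0.15 (-0.19 to 0.50) and in microglia-like cells -0.04 (-0.25 to 0.16). In endothelial-like cells Itgb3 was 7.28, 10.8, 8.21 and 6.56 CPM in saline and 12.4, 9.94, 10.6 and 11.3 CPM in ancrod mice. Saline replicate 2 lay within the ancrod range and the other 3 saline mice below it, with a log2 fold change of 0.42 (SE 0.17, unadjusted p = 0.032, adjusted p = 0.477, edgeR's quasi-likelihood test). Within the Selp-led cluster Itgb3 was 25.5 ± 12.4 CPM in saline and 19.5 ± 2.56 CPM in ancrod mice. In the clusters led by Hmcn1, Il1r1 and Pglyrp1, the saline means were 3.16, 6.51 and 0.956 CPM. The ancrod means were 3.69, 8.36 and 2.61 CPM. The larger pooled share of the Selp-led cluster and the marker lists given for Itga5 stand beside the endothelial value. Pericyte-like cells held Itgb3 at 7.70 CPM and fibroblast-like cells at 11.6 CPM, against 9.64 CPM in endothelial-like cells. The part of the share or of these lists was not tested. In pericyte-like cells, where Itgb3 fell below the filter, the values were 1.58, 3.99, 1.18 and 7.83 CPM in saline and 12.9, 10.9, 8.60 and 14.6 CPM in ancrod mice, from 1 to 8 UMIs per saline mouse and 8 to 16 per ancrod mouse. The groups did not overlap, and without the filter the log2 fold change was 1.70 (SE 0.50, adjusted p = 0.0772, edgeR's quasi-likelihood test). With the filter and without saline replicate 4 it was 2.36 (adjusted p = 0.0549), and it was 1.41 to 1.83 when another mouse was left out and the gene passed the filter. The summed level of the fibroblast markers given for Itga5 does not overlap between the groups in these cells. Of the 10 markers, 6 were higher in the ancrod mean. Fibroblast-like cells hold Itgb3 at 11.6 CPM, and the part of these markers was not tested. In the unnamed cluster led by Rgs5 and Abcc9, Itgb3 was 7.77 ± 2.41 CPM in saline and 9.42 ± 3.24 CPM in ancrod mice. Pericyte-like cells were also the class that held all 72 genes called over the 13 classes, 0.791% of the 9097 genes tested there.

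Itga2b in endothelial-like cells was 8.20, 10.2, 11.4 and 11.1 CPM in saline and 12.6, 13.6, 10.8 and 15.9 CPM in ancrod mice. Of the ancrod mice, 3 lay above every saline mouse and replicate 3 lay within the saline range, with a log2 fold change of 0.38 (SE 0.15, 95% interval 0.05 to 0.70, unadjusted p = 0.0269, adjusted p = 0.471, edgeR's quasi-likelihood test). The Selp-led cluster, highest in Itga2b, had a larger pooled share in ancrod mice. Its Itga2b means were 17.5 CPM in saline and 19.0 CPM in ancrod mice. In the clusters led by Hmcn1, Il1r1 and Pglyrp1, the saline means were 5.72, 11.1 and 7.48 CPM. The ancrod means were 8.30, 11.6 and 8.10 CPM. The marker lists given for Itga5 apply here too. Pericyte-like cells held Itga2b at 0.812 CPM and fibroblast-like cells at 6.78 CPM, against 11.7 CPM in endothelial-like cells. The part of the share or of these lists was not tested. In fibroblast-like cells Itga2b was 6.13, 6.22, 7.03 and 7.89 CPM in saline and 6.63, 7.57, 6.47 and 6.30 CPM in ancrod mice, a log2 fold change of -0.0036 (95% interval -0.36 to 0.35). In astrocyte-like cells it was 0.012 (95% interval -0.49 to 0.51). The same sign as in the fit over all mice was seen in batch 1 alone for 10 of the 10 pairs at an unadjusted p below 0.05. Between the batch 2 mice, 1 per group, it was seen for 9 of 10, the exception being Itgax in inflammatory macrophage-like cells. For the 22 pairs chosen by level, these numbers were 15 and 20 of 22. All of these mice were also in the fit over all mice. The 10 pairs were picked by p from that fit, so their shared signs are not an independent check.

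**Figure D5:**
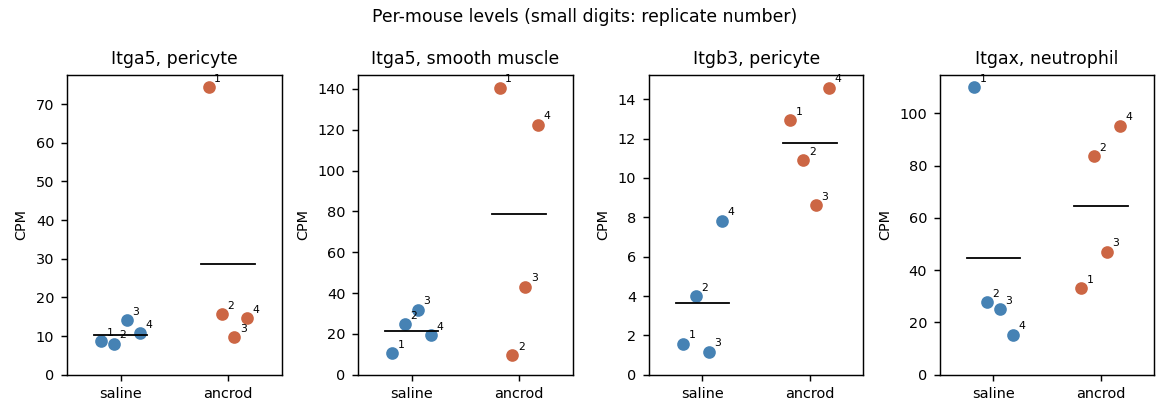
Levels (CPM) of Itga5 in pericyte-like and smooth muscle-like cells, Itgb3 in pericyte-like cells and Itgax in neutrophil-like cells, with each point 1 mouse marked by its replicate number and a bar at each group's mean. Ancrod replicate 1 stands apart at 74.3 CPM of Itga5 in pericyte-like cells, saline replicate 1 at 110.1 CPM of Itgax in neutrophil-like cells, and Itgb3 does not overlap between the groups.

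Summed over all cells, where fewer cells of a type and less RNA per cell cannot be told apart, 0 of the 8 members passed an adjusted p of 0.05 (lowest adjusted p = 0.298), as did 0% of all 16128 genes, while DESeq2 called 521 genes and none of the members. At an unadjusted p below 0.05 there was 1 of 8, against 15.0% of all genes, and that member was also the 1 of 8 without overlap after normalisation, against 8.98% of all genes. It was Itgb3, at 12.4, 12.5, 11.7 and 13.1 CPM in saline and 11.2, 10.3, 11.8 and 11.1 CPM in ancrod mice. On CPM the lowest saline and the highest ancrod mouse overlapped slightly, and the log2 fold change was -0.20 (SE 0.08, unadjusted p = 0.0302, adjusted p = 0.298, edgeR's quasi-likelihood test).

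The genes that work with these receptors were read as lists over the same 13 classes. Of the 77 tested pairs of a ligand gene and a class, 1 passed and rose, Fn1 in pericyte-like cells, and 0 fell, against 0.0574% of all gene and class pairs and 0.791% of the genes tested in pericyte-like cells. Fn1 encodes fibronectin, a ligand of α5β1 and αv integrins. It was 162, 151, 116 and 106 CPM in saline and 469.6, 293, 229 and 353 CPM in ancrod mice. Every ancrod mouse was above every saline mouse, and the log2 fold change was 1.39 (SE 0.21, adjusted p = 0.00595, edgeR's quasi-likelihood test), beside the fibroblast marker values of these cells given above. In the other lists 0 pairs passed in either direction: 212 pairs of activation and adaptor genes such as talin and kindlin, 149 pairs of the kinases and exchange factors downstream, 51 pairs of NADPH oxidase subunits, 30 pairs of the partner subunits Itgb1, Itgb5, Itgb6 and Itgb8, and 8 pairs of Itgal, the CD11a chain. At an unadjusted p below 0.05 these lists had 11, 10, 4, 2 and 1 pairs in that order, and the ligands had 9, against the 6.35% of all pairs given above.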

How the data were processed

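Cells of 8 mice were profiled with 10x 3′ chemistry, 1 library per mouse. The deposited files hold raw UMI counts for every droplet, empty ones included, which the authors made with Cell Ranger 7.1.0 (STAR) on the GRCm39 (mm39) reference with exonic and intronic reads counted. Cell Ranger leaves out reads that fit more than 1 gene, which lowers genes with overlapping models. Per the file headers, 21848 genes were listed and no column of another sample was present. Intervals of pooled counts cover counting error only, while those of fold changes include the spread between mice. The members and all lists were chosen with earlier results of these data known.

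From the counts, droplets with at least 2000 UMIs and under 20% mitochondrial UMIs were kept, doublets were scored by simulated pairs of cells at a rate set by the number of droplets and removed, and cells were clustered (3000 variable genes without 27 integrin genes, 30 principal components, 20 neighbours, Leiden resolution 2, scikit-learn 1.9.0, leidenalg 0.10.2). Clusters were named from marker genes; 44 pairs of a member and a class fell below the count filter. UMIs were summed per mouse and class (at least 10 cells) and fitted with edgeR 4.0.16 (R 4.3.3; filterByExpr, TMM, estimateDisp, glmQLFit, glmQLFTest, two-sided, group only), with Benjamini-Hochberg adjustment over all genes of a class and a threshold of 0.05. SE and 95% intervals come from the unshrunk coefficient and its F statistic. Fold changes were given for each member in its 3 highest tested classes, and, chosen after values were seen, for pairs with an unadjusted p below 0.05, for Itgb2 in border-associated macrophage-like cells and for Itgb3 in pericyte-like cells. The 3 genes most like a member were those outside the integrin family with the highest Pearson correlation of mean log2(CPM + 1) over 13 classes, among genes reaching 50 CPM in a class. The same fit was also run on simulated counts, whose outcome is not given here. Alternatives were DESeq2 1.42.0, RLE factors, no filter, a replicate block, a batch term, batch 1 only, each mouse left out, doublets kept, at least 4000 UMIs, under 10% mitochondrial UMIs and Leiden resolution 1. Over the pooled cells of each group, the largest single cluster of astrocyte-like, microglia-like and neuron-like cells differed between the 2 groups.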

Additional observations from a re-analysis of the deposited data

Results flagged for a closer look

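In 3 groups of 4 mice there was a mouse whose gap to the nearest other mouse exceeded the critical share of the group's range (0.829 for 4 samples), among 76 groups checked, and chance alone marks about 1 group in 20. Itgax in neutrophil-like cells was 110.1 CPM in saline replicate 1, against 15.3 to 27.8 CPM in the other saline mice, from 5 UMIs in 12 cells. Itgb3 in fibroblast-like cells was 9.91 CPM in ancrod replicate 3, against 12.5 to 13 CPM in the other ancrod mice. Itga5 in pericyte-like cells was 74.3 CPM in ancrod replicate 1, against 9.68 to 15.7 CPM in the other ancrod mice.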

How the results depend on the processing

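No member passed an adjusted p of 0.05 in any class or over all cells under any alternative run, DESeq2 included, and the lowest adjusted p was 0.0549 (Itgb3 in pericyte-like cells without saline replicate 4). The highest class of each member was the same for 8 of 8 members with doublets kept and for 7 of 8 at Leiden resolution 1 and at 4000 UMIs, where Itgb2 was highest in neutrophil-like cells. The class with the largest share of cells holding a UMI was the same for 5 of 8 members after thinning. Of the log2 fold changes recomputed, 629 kept their sign and 47 turned, all of them values whose intervals include 0 except Itgam in astrocyte-like cells, which was -0.72 with doublets removed and 0.066 with doublets kept. In batch 1 only, the turned values were Itgam 0.044, Itgb2 0.030 and Itga5 0.23 in neutrophil-like cells, Itgad 0.084 and Itga5 -0.13 in microglia-like cells, Itgb3 -0.014 and Itga2b 0.10 in fibroblast-like cells, and Itga5 -0.11 over all cells. Without the filter, Itgam was 0.023 and Itga5 0.053 in neutrophil-like cells. Itga2b in fibroblast-like cells was 0.0041 without the filter, 0.0069 with batch in the model, 0.0039 at 4000 UMIs, 0.015 at under 10% mitochondrial UMIs and 0.0098 with the replicate block, and Itga5 in neutrophil-like cells was 0.027 with batch in the model. Itga2b in astrocyte-like cells was -0.30 at under 10% mitochondrial UMIs, -0.0016 with the replicate block and -0.057 with doublets kept. The cause was not tested. Leaving out each mouse gave ranges across 0 of -0.12 to 0.12 for Itga2b in astrocyte-like and -0.072 to 0.089 in fibroblast-like cells, -0.28 to 0.17 for Itga5, -0.13 to 0.087 for Itgam and -0.21 to 0.076 for Itgb2 in neutrophil-like cells, -0.29 to 0.090 for Itgad and -0.10 to 0.015 for Itgb3 in microglia-like cells, -0.019 to 0.18 for Itgam in monocyte-like cells, and -0.056 to 0.23 for Itga5 and -0.14 to 0.20 for Itgax over all cells.

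Over all genes in the 13 classes, 72 were called, against 277 by DESeq2, 340 without the filter, 250 with the replicate block, 118 with batch in the model, 19 with doublets kept, 29 at 4000 UMIs, and 16 (without saline replicate 2) to 209 (without ancrod replicate 2) when a mouse was left out. Mice numbered 1 to 3 all belong to batch 1, and within it same-numbered mice of the groups share only a number. The mice numbered 4 are the only mice of batch 2, and they correlated at over 0.1 in 8 of 14 fits. In all 55 pairs of same-numbered mice their deviations correlated from -0.48 to 0.40, 13 were over 0.1, and 37 of 110 mice correlated best with their own number. The replicate block called 0 members. Low counts kept 44 pairs of a member and a class, Itgad in all but microglia-like cells among them, out of the test.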
